A study of Mus musculus with 6 samples.

Results

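Bcl6, Irf4, Prdm1, Pax5, Ebf1, Pou2af1, Spib, Irf8, Bach2 and Foxo1 encode transcription factors that set the identity and fate of B cells, and their transcripts were compared in follicular B cells with and without the receptor GPR174. The genes were listed by name with earlier results of these data known, so their share of calls is a description. All 10 were among the 12431 genes in the count table and among the 10514 that passed a filter on low counts. The cells were sorted from spleens of adult male mice as CD21/35- CD23+ and held for 1 h in complete medium with no added stimulus. WT cells carried the intact X-linked receptor gene (Gpr174+/Y), and KO cells (Gpr174-/Y) carried an allele in which tdTomato stands in place of the single coding exon in every cell of the mouse. There were 3 mice and 3 libraries per genotype.

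PAX5 and EBF1 hold the B cell program in place from the earliest committed progenitors on. The coactivator encoded by Pou2af1, the Ets factor SPIB, IRF8, BACH2 and FOXO1 act with them in mature cells, and these 7 are called identity factors here. BCL6 is the repressor that germinal centre B cells require. IRF4 is induced when B cells are activated, and at high levels it promotes plasma cell differentiation together with Blimp-1, the product of Prdm1, whereas BCL6 and BACH2 repress Prdm1.

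Bcl6 and Irf4 transcripts were lower in WT than in KO cells, whereas none of the 7 identity factors passed the same test. The 95% intervals of Irf8 and Pax5 included the difference seen for Irf4, so a change of that size was not excluded for them. KO cells held 1.73 times the WT level of Bcl6 and 1.30 times that of Irf4. Of the 10 genes, 2 had an adjusted p under 0.05 in edgeR's quasi-likelihood test and both were lower in WT. Over all tested genes, 1.82% passed in either direction and 0.514% were lower in WT. The identity factors counted 0 calls in edgeR and 0 in DESeq2, which called 3.11% of the genes it gave an adjusted p. Of the 7, Irf8 and Foxo1 had an unadjusted p under 0.05 in edgeR, with differences of opposite sign. The same held for 1248 of all 10514 tested genes.

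Total counts ranged from 8452460 to 10944833 per library, and libraries of one group differed by far more than counting noise. Levels are given as CPM, read counts scaled to a common library size by TMM, and fold changes are log2 of WT over KO. Gpr174 itself was still counted in KO cells, at 99.95 CPM ± 0.21 against 128 CPM ± 7.43 in WT (SD, n = 3), and was called lower in KO, without overlap (log2 fold change 0.35, edgeR adjusted p 0.0359). The direction is that of the labels, but the table does not give read positions, so whether the KO reads lie outside the replaced exon could not be seen. Genotypes were tested on counts within a gene, and sums, ratios and ranks by abundance over genes describe counts only. The libraries were primed at transcript 3′ ends, and counts do not scale with transcript length.

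The promoter windows of the genes that moved or leaned the same way are shown first, because Bcl6, Irf4 and Irf8 were the 3 genes whose 95% interval lay below 0. Each window runs from 250 bases before to 50 bases after a RefSeq start on GRCm38.p6, 5′ to 3′ on the gene's strand, and all 10 genes had at least 1 window, 13 in all. Capitals mark TGACG, the core of the cAMP response element (CRE), on either strand, and TTCNNNGAA, the letters that STAT factors bind and that BCL6 sites resemble. Bcl6 has a window at chr16:23988803-23989102 (minus strand) and another, downstream, at chr16:23981234-23981533. The Irf4 window is chr13:30748983-30749282 (plus strand) and the upstream Irf8 window is chr8:120736108-120736407 (plus strand).
Bcl6, upstream start: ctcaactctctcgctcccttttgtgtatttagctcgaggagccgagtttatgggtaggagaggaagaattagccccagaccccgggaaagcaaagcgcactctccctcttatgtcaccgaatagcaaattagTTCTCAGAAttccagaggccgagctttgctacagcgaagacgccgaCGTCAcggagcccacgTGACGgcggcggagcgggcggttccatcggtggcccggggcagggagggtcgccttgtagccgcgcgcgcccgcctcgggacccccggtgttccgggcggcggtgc
Bcl6, downstream start: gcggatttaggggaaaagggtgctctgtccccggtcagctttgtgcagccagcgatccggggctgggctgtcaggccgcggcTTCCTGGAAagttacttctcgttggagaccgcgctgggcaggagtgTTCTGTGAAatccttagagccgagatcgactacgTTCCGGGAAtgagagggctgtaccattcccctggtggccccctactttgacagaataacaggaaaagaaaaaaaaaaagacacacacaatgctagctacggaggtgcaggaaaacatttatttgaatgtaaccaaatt
Irf4: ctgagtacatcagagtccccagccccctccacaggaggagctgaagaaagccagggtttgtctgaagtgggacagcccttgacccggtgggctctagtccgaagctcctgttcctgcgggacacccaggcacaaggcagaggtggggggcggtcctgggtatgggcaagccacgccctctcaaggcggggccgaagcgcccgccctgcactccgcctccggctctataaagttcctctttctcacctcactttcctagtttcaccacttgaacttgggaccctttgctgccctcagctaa
Irf8, upstream start: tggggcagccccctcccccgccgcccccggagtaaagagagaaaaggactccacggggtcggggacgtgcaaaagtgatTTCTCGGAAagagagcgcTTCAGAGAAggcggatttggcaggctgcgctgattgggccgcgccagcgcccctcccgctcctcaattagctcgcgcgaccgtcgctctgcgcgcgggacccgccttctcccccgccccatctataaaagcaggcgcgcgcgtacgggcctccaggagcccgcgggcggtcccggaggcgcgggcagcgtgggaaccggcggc

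The upstream Bcl6 window held the letters TGACG 2 times, at positions -72 (on the opposite strand) and -56 from the start, counted at the leftmost base. At least 1 match was present in 20.8% of all 32851 promoter windows and at least 2 in 5.01%. The full palindrome TGACGTCA was in 0 of the 13 windows and in 1.79% of all windows. TTCNNNGAA, which reads the same on both strands, occurred 3 times in the downstream Bcl6 window, at -168, -122 and -88, and 1 time in the upstream one. It was present at least 3 times in 0.0335% of all windows and at least 1 time in 8.3%. The Irf8 window held it 2 times, as 0.457% of windows do at least, and the Irf4 window held none of these motifs. TGACG was also found in a window each of Prdm1, Ebf1 and Pou2af1, and TTCNNNGAA in that of Bach2, all of which missed the threshold. Searches on both strands for TTCCTAGAA (BCL6), GTAAACA (FOXO) and the interferon-stimulated response element found 0, 1 (Prdm1) and 1 (Ebf1) of the 13 windows. Matches describe these letters only, and no binding was measured.

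Bcl6 (chromosome 16, 23965052 to 23988852, minus strand, mm10) was at 163, 191 and 179 CPM in WT replicates 1 to 3 and at 291, 295 and 337 CPM in KO replicates 1 to 3. Every KO library was above every WT library, with no WT value above 191 CPM and no KO value below 291 CPM. The difference was -0.79 ± 0.08 (SE) on the log2 scale, with a 95% interval from -0.96 to -0.63 and an edgeR adjusted p of 2.33e-07. It ranked 13 of 10514 genes by p. The values rested on 4964 counts over the 3 WT libraries and 9365 over the 3 KO libraries. The call held in all 6 fits with a single library omitted, in which the log2 fold change lay between -0.85 and -0.72 and the adjusted p reached 5.64e-05. An annotated gene on the opposite strand, Gm37419, overlaps Bcl6 exons, and because the use of strand in counting was not stated, the 2 cannot be told apart in these counts.

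Irf4 (chromosome 13, 30749226 to 30766976, plus strand) was at 331, 402 and 388 CPM in the WT libraries and at 456, 489 and 507 CPM in the KO libraries. The groups again did not overlap, although the highest WT and the lowest KO value were closer together than for Bcl6. Over all tested genes, WT and KO values did not overlap in 16.7%, and in 8.28% they did so with WT lower. The log2 fold change of Irf4 was -0.38 ± 0.07 (SE), the 95% interval ran from -0.53 to -0.22, and the edgeR adjusted p was 0.0043. This call was lost without WT replicate 1, the lowest library, at an adjusted p of 0.0548, and without KO replicate 3, the highest, at 0.0696. In those fits the log2 fold change was -0.29 and -0.34. DESeq2 gave Irf4 an adjusted p of 0.000427 over all libraries.

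**Figure D1:**
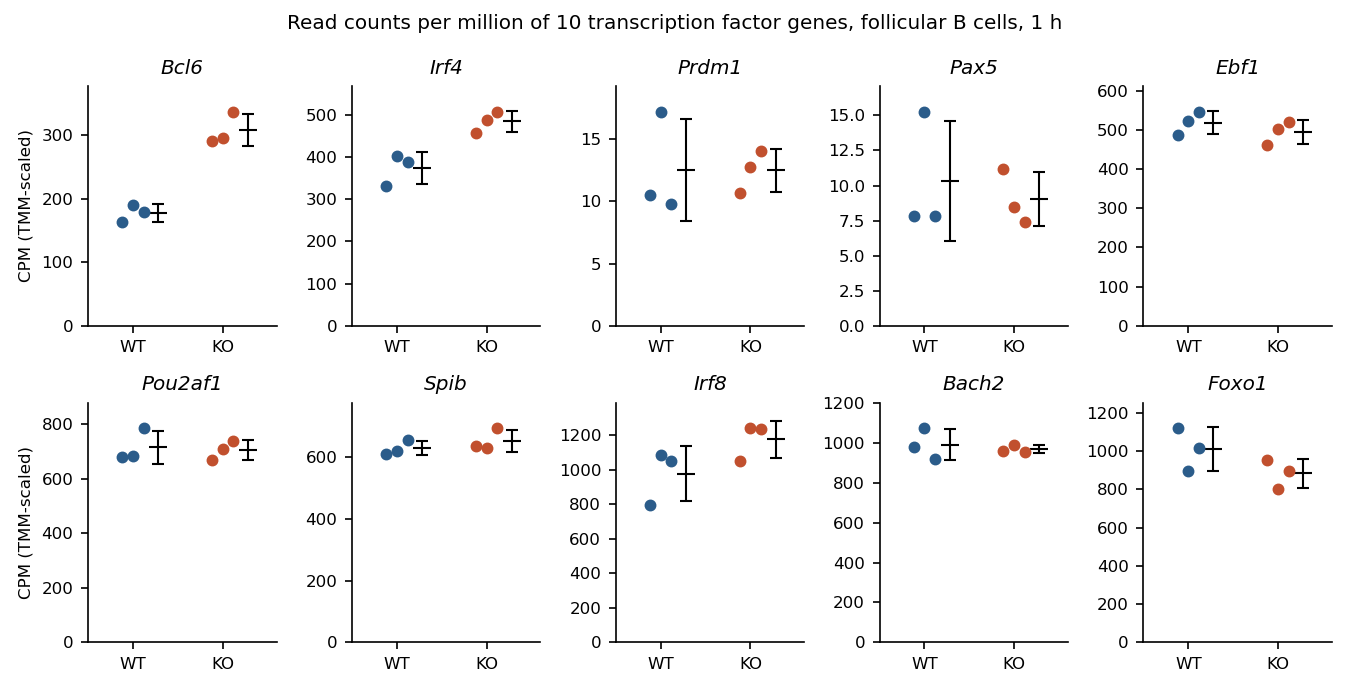
Levels in CPM (TMM-scaled, linear axes from 0) of the 10 genes in each of 3 WT (blue) and 3 KO (orange) libraries, with the mean and SD in black. Bcl6 and Irf4 show no overlap between genotypes, with Bcl6 at 163 to 191 CPM in WT and 291 to 337 CPM in KO, and the other 8 genes overlap.

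IRF8 is the close relative of IRF4 that B cells express in a largely opposite pattern during differentiation. Irf8 (chromosome 8, 120736358 to 120756694) was at 795, 1087 and 1049 CPM in WT libraries and at 1048, 1239.8 and 1236 CPM in KO. WT replicate 1 was far below the other libraries, and KO replicate 1 lay among the WT values, so the groups overlapped. The log2 fold change was -0.27 ± 0.11 (SE) with a 95% interval from -0.52 to -0.01, and the adjusted p was 0.402 in edgeR and 0.136 in DESeq2. Without WT replicate 1 the log2 fold change was -0.14. Across the 6 libraries the Irf8 profile was nearer to Irf4 than to any other of the 10 genes. The root mean square difference of mean-centred log2 CPM was 0.087 between Irf8 and Irf4, against 0.279 between Irf8 and Bcl6 and 0.212 between Irf4 and Bcl6.

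Prdm1 encodes Blimp-1, the repressor that ends the B cell program in plasma cells. Its transcripts were scarce, at 10.5, 17.2 and 9.76 CPM in WT and 10.6, 12.8 and 14.0 CPM in KO. The values overlapped, with the highest and the lowest both in WT. The log2 fold change was -0.003 with an adjusted p of 0.997, and the 95% interval ran from -0.51 to 0.50. The values rested on 345 counts over the WT libraries and 378 over the KO libraries. The interval included the difference seen for Irf4, so a change of that size was not excluded for Prdm1.

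Among the identity factors, Foxo1 stood highest in WT relative to KO. FOXO1 drives genes for lymphocyte homing and survival control and is held out of the nucleus by phosphoinositide 3-kinase signalling. Foxo1 (chromosome 3, 52268336 to 52353221) was at 1119, 893 and 1017 CPM in WT libraries and at 953, 803 and 893 CPM in KO. The lowest WT library lay within the KO values. The log2 fold change was 0.19 ± 0.08 (SE), the 95% interval ran from 0.03 to 0.35, and the edgeR adjusted p was 0.284. With one library omitted, the log2 fold change ran from 0.11 without WT replicate 1 (adjusted p 0.643) and 0.13 without KO replicate 2 (0.705) to 0.27 without WT replicate 2, the single fit in which it passed (0.0491).

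The other identity factors showed differences near 0 with intervals that excluded a change of the size of Bcl6. Ebf1, at 488, 522 and 546 CPM in WT and 462, 502 and 520.4 CPM in KO, had a log2 fold change of 0.07 with a 95% interval from -0.07 to 0.21. Pou2af1 encodes the coactivator OBF-1, which joins octamer factors on immunoglobulin promoters. Its levels were 679, 684 and 786 CPM in WT against 668, 710.3 and 739 CPM in KO, with log2 fold change 0.02 and an interval from -0.12 to 0.16. Spib was at 612, 621 and 655 CPM in WT and 636, 631 and 694 CPM in KO, a log2 fold change of -0.05 with an interval from -0.19 to 0.08. Bach2, whose product delays plasma cell differentiation, was at 981, 1073 and 919 CPM in WT and 961, 991 and 952 CPM in KO. Its log2 fold change was 0.03, with an interval from -0.10 to 0.17. In each of these 4 genes the genotypes overlapped, and edgeR adjusted p values lay between 0.771 for Ebf1 and 0.946 for Pou2af1. A change of the size of Irf4 was likewise outside all 4 intervals.

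Pax5 could not be judged in the same way. It was counted at only 7.87, 15.3 and 7.83 CPM in WT and 11.2, 8.50 and 7.41 CPM in KO, from 283 and 277 counts in all. The annotation used for counting is not known, and whether it covers the 3′ end of Pax5, where these libraries were primed, was not tested. The highest value was WT replicate 2, and the other 5 libraries overlapped. The log2 fold change was 0.18 ± 0.29 (SE), the 95% interval from -0.41 to 0.77 included the size seen for Irf4 in either direction, and the edgeR adjusted p was 0.86. Without WT replicate 2 the log2 fold change was -0.21. Annotated antisense genes overlap exons of Pax5 (Gm12462 and 5730488B01Rik), Bach2 (Bach2os) and Foxo1 (Gm20402), and the limit on strand given for Bcl6 applies to them.

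**Figure D2:**
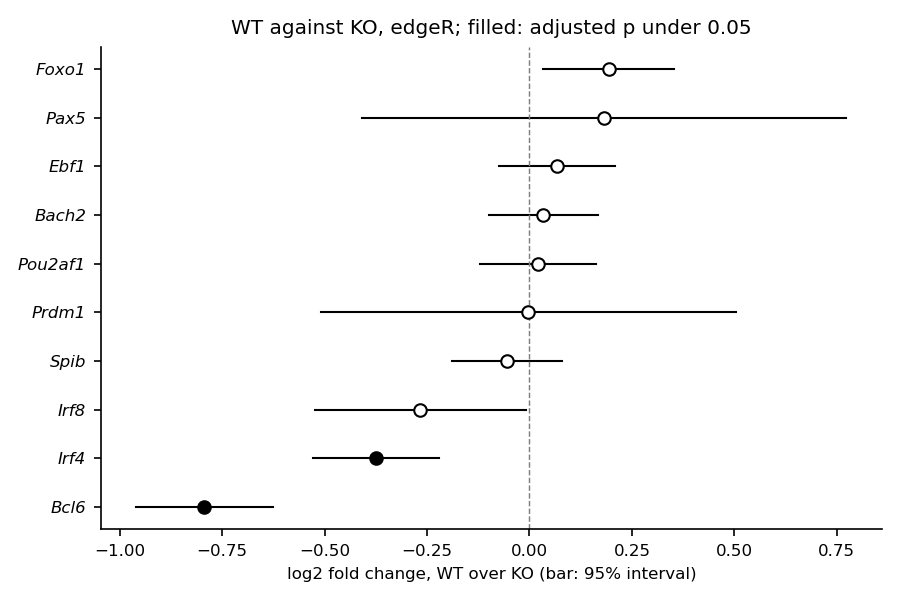
Log2 fold changes of WT over KO (x axis) for the 10 genes (y axis), with 95% intervals as bars and filled points where the edgeR adjusted p was under 0.05. Bcl6 at -0.79 and Irf4 at -0.38 are filled, Irf8 at -0.27 and Foxo1 at 0.19 have intervals on one side of 0 without passing, and Pax5 and Prdm1 have the widest intervals.

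To set Bcl6 and Irf4 against the identity factors within each library, their log2 CPM was taken relative to the mean log2 CPM of the 7 identity factors in the same library, which cancels the scaling of libraries. For Bcl6 this ratio was -1.26, -1.23 and -1.22 in WT and -0.51, -0.47 and -0.30 in KO. All KO libraries lay 0.71 or more above all WT libraries. The SD of the WT ratios was 0.024 here, but 0.187 against Pax5 and Ebf1 alone, 0.052 without Irf8 and 0.121 without Irf8 and Pax5. The mean ratio was lower by 0.81 in WT, so the shift in Bcl6 against these factors was as large as its own fold change. For Irf4 the ratio was -0.25, -0.15 and -0.11 in WT and 0.13, 0.26 and 0.29 in KO, and all KO libraries lay above all WT libraries. Its WT minus KO difference was -0.40 (-0.395 before rounding), and it was -0.44 when Irf8 was left out of the reference. These are scores over genes chosen with results known and carry no p, and no test of the contrast between genes was run.

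**Figure D3:**
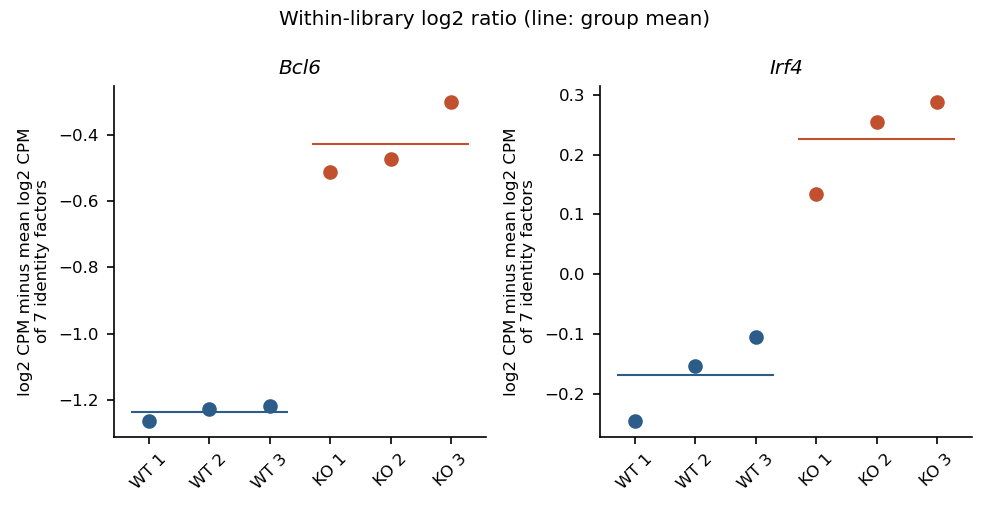
Log2 CPM of Bcl6 (left) and Irf4 (right) minus the mean log2 CPM of the 7 identity factors in the same library (y axis, log2 units), for 3 WT (blue) and 3 KO (orange) libraries, with group means as lines. Bcl6 lies between -1.26 and -1.22 in WT and between -0.51 and -0.30 in KO, and Irf4 shows a smaller gap.

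Calls on the 10 genes were then followed through 15 fits of the same contrast: 9 tools, scalings, filters or dispersion settings and 6 fits without one library. Bcl6 passed in 15 of 15, with log2 fold changes from -0.85 to -0.72. Irf4 passed in 13 of 15, from -0.43 to -0.29. Irf8 kept its sign in all of them, from -0.35 to -0.14, and passed in 0, although it passed in a further fit blocked on replicate number that is given with the processing alternatives. Foxo1 kept its sign, from 0.11 to 0.27, and passed in 1.

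**Figure D4:**
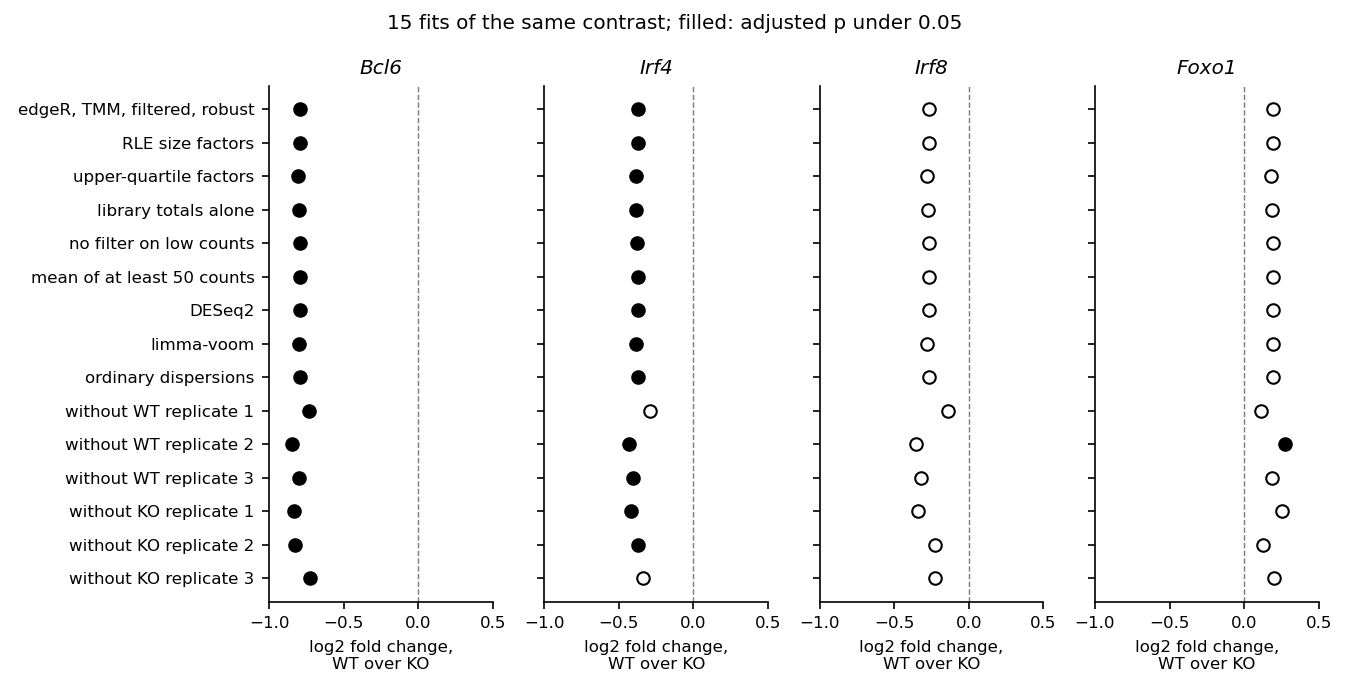
Log2 fold changes of WT over KO (x axes) for Bcl6, Irf4, Irf8 and Foxo1 in 15 fits (rows), with filled points where the adjusted p was under 0.05. Bcl6 is filled in every row, Irf4 is open without WT replicate 1 and without KO replicate 3, Irf8 is open throughout, and Foxo1 is filled only without WT replicate 2.

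The genes whose profiles over the 6 libraries were most like those of Bcl6 and Irf4 were looked up among the 9681 genes that averaged 20 counts or more per library. The 5 nearest to Bcl6 were Mpst, Rnf135, Pex11c, BC026590 and Gadd45g, with root mean square differences of 0.073 to 0.122, where the median gene differed by 0.444. Of these, Gadd45g, a stress-inducible growth arrest gene, was at 113 CPM ± 15.5 in WT cells and 174 CPM ± 16.9 in KO (SD, n = 3) and was called lower in WT, with an edgeR adjusted p of 0.000387. The other 4 had means of 50 to 139 counts and missed the threshold. The 5 nearest to Irf4 were Icam1, Tbc1d10a, Ado, Gpr18 and Arl6ip6, with differences of 0.053 to 0.064 against a median of 0.278. Gpr18, a G protein-coupled receptor gene, was called lower in WT at an edgeR adjusted p of 0.0351, and Icam1, which encodes an adhesion molecule, had a log2 fold change of -0.37 with an adjusted p of 0.217. The direction of these genes follows from how they were picked.

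Other transcription factors of B cell development and fate gave 1 call in 37 genes tested, or 2.7%, against 1.82% of all tested genes. This was Id2, which was higher in WT. ID2 binds and blocks E proteins, the basic helix-loop-helix factors of the B lineage. Id2 rose from 16.8 CPM ± 3.86 in KO to 35.6 CPM ± 3.56 in WT (SD, n = 3), a log2 fold change of 1.08 ± 0.18 (SE) at an edgeR adjusted p of 0.000498. The median over the list was 0.03, against -0.003 over all tested genes. The most abundant genes that missed the threshold were Foxp1 and Mef2c, with log2 fold changes of -0.07 and -0.04 and 95% intervals from -0.18 to 0.05 and from -0.16 to 0.09.

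BCL6 represses transcription through corepressor complexes, and 15 genes for its corepressors, partners and regulators were tested. The list had 1 call (6.67%, against 1.82% of all tested genes). This was Fbxo11, whose product marks BCL6 protein for degradation. Fbxo11 was at 338 CPM ± 28 in WT cells and 271 CPM ± 23 in KO (SD, n = 3), a log2 fold change of 0.32 ± 0.08 (SE) at an edgeR adjusted p of 0.0308. That call was lost in 5 of the 6 fits without one library, in each but that without WT replicate 2, where adjusted p values reached 0.245, and with ordinary dispersions. The corepressor gene Ncor1 and the acetyltransferase gene Ep300 had log2 fold changes of -0.03 and 0.10 with 95% intervals from -0.16 to 0.11 and from -0.06 to 0.25. The median over the list was -0.02.

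Genes known as targets of BCL6 repression did not move one way. Of 20, 18 were tested and 3 were called (16.7%, against 1.82% of all tested genes). Of the called genes, 2 were higher in WT (Id2, given above, and Cdkn1a) and 1 was lower (Cd69). The list median was 0.01. Without KO replicate 3 the list had 1 call. Cdkn1a, which encodes the cell cycle inhibitor p21, was at 20.9 CPM ± 0.86 in WT cells and 10.1 CPM ± 1.46 in KO (SD, n = 3), a log2 fold change of 1.05 with an edgeR adjusted p of 0.00397. It missed the threshold only without KO replicate 3, at 0.0529. Cd69, an early activation antigen that retains lymphocytes in tissue, had a log2 fold change of -0.42 with an edgeR adjusted p of 0.0423, but missed the threshold in 4 of 6 fits with a library omitted (WT replicates 1 and 3, KO replicates 2 and 3). The receptor gene Gpr183, which guides B cells to the outer follicle, was at 534 CPM ± 70.5 in WT cells and 669 CPM ± 79.2 in KO (SD, n = 3) and was not called (log2 fold change -0.33, adjusted p 0.137). S1pr1, an egress receptor gene, had a log2 fold change of -0.04 with an interval from -0.19 to 0.12.

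Genes that PAX5 and EBF1 activate in B cells were examined as a readout of the identity program. All 15 were tested, 10 were below 0 and 5 above, and the median was -0.07. The list had 1 call (6.67%, against 1.82% of all tested genes). Cd79b, which encodes a signalling chain of the B cell receptor, was at 736 CPM ± 22.2 in WT cells and 964 CPM ± 45.5 in KO (SD, n = 3), a log2 fold change of -0.39 ± 0.06 (SE) at an edgeR adjusted p of 0.000358. Its call held without each library in turn. Ms4a1, which encodes CD20, and Bank1, a B cell scaffold gene, were the most abundant genes not called, with log2 fold changes of -0.07 and 0.06 and intervals from -0.19 to 0.06 and from -0.07 to 0.18.

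Genes that FOXO1 induces in lymphocytes and other cells were called in both directions. Of 13, 11 were tested and 4 were called (36.4%, against 1.82% of all tested genes), 3 higher in WT and 1 lower, and the median was 0.12. The count fell to 2 without WT replicate 1 and to 1 without KO replicate 1 or KO replicate 3. Bcl2l11, which encodes the proapoptotic protein BIM, rose from 198 CPM ± 12.4 in KO to 382 CPM ± 4.42 in WT (SD, n = 3), a log2 fold change of 0.95 ± 0.07 (SE) at an edgeR adjusted p of 1.29e-09, and the call held without each library in turn. The chemokine receptor gene Ccr7 and the growth arrest gene Gadd45a were higher, with log2 fold changes of 0.28 and 0.71. Klf2, which encodes a factor that maintains quiescence and homing, was lower by contrast, at -0.23 with an edgeR adjusted p of 0.0381. Calls were lost in 2 of the 6 fits without one library for Ccr7 (KO replicates 1 and 3) and in 5 for Gadd45a and Klf2, which each kept them in a single fit, without WT replicate 2 for Gadd45a and without WT replicate 3 for Klf2. The Gadd45a call was also lost with limma-voom over all libraries. S1pr1 missed the threshold, as given above.

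**Figure D5:**
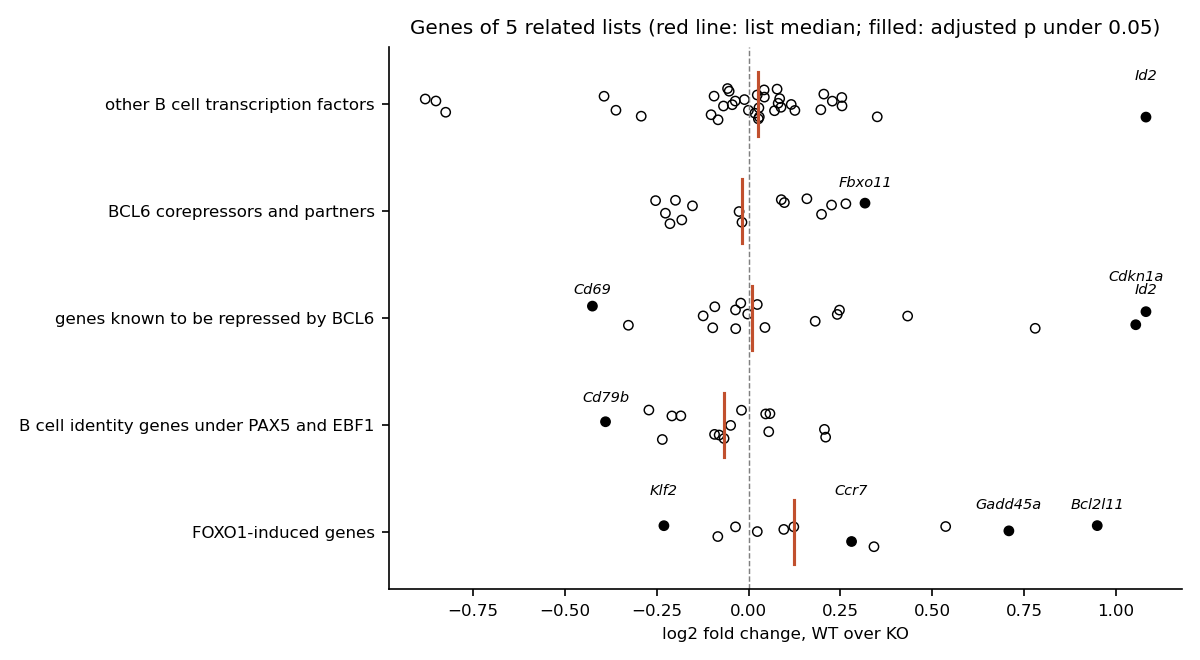
Log2 fold changes of WT over KO (x axis) for the tested genes of 5 related lists (rows), with called genes filled and named and list medians as red lines. Medians lie between -0.07 and 0.12, and the called genes fall on both sides of 0.

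Markers of the sorted cells and of cells that the gate could hold were set beside these results. Genes listed as follicular B cell markers were abundant, with Ms4a1, Fcer2a and Cxcr5 each at 403 CPM or more in every library. Ms4a1 and Fcer2a are also in the list under PAX5 and EBF1, so these levels alone do not set follicular cells apart. The sum of 6 such markers was 3920 to 4140 CPM in WT and 4240 to 4370 CPM in KO, without overlap. Germinal centre markers, of which 10 had counts, summed to 25.5 to 41.0 CPM in WT and 27.6 to 30.0 CPM in KO. Plasma cell markers summed to 661 to 669 CPM in WT and 622 to 681 CPM in KO, and marginal zone markers to 1280 to 1360 CPM in WT and 1250 to 1450 CPM in KO. The plasma cell sum was mostly Mzb1 and Sec11c (means of 265 and 196 CPM in WT), with Sdc1 at 8.59 CPM. The marginal zone sum was mostly Cr2 (1043 CPM in WT), with Cd9 at 6.24 CPM, so neither sum measures the number of such cells. T cell markers summed to at most 19.7 CPM, myeloid markers to 63.2 CPM and NK cell markers to 14.1 CPM, the last without overlap between WT (7.83 to 14.1 CPM) and KO (6.53 to 7.30 CPM). Erythroid markers summed to 2680 to 4720 CPM in WT and 3020 to 7590 CPM in KO. The part of any of these cells in the differences of Bcl6 and Irf4 was not tested. Of 48 tested marker genes, 0 were called in edgeR and 6 had an unadjusted p under 0.05, as did 1248 of all 10514 tested genes. DESeq2 called 2, among them Fcer2a, which was lower in WT. In bulk libraries, fewer cells of a type and less RNA per cell cannot be told apart.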

How the data were processed

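RNA of sorted follicular B cells was measured in 3 WT and 3 KO libraries, which were grouped by their titles. By the published methods and the submitters' processing notes, the authors primed libraries at 3′ ends, aligned single-end reads to mm10 (STAR) and counted them over genes (HTSeq). Tool versions, the annotation used and the handling of strand were not given in the sources used here. The deposited values are raw counts of 12431 genes in 6 libraries, with no normalization, and the smallest row total was 10. Of the sample columns, 0 were left unused. Reads carry no molecular identifiers.

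Counts were filtered with filterByExpr and scaled by TMM, and WT and KO were compared over all 10514 remaining genes with the quasi-likelihood test of edgeR, robust dispersions included (edgeR version 4.0.16, R version 4.3.3), two-sided, with Benjamini-Hochberg adjustment over all of them and a threshold of 0.05. SE is the absolute log2 fold change over the square root of F, and 95% intervals use the fit's total degrees of freedom. Log2 CPM for profiles and ratios used a prior count of 2. Tests were checked on simulated counts. Replicates were compared by chi-square per degree of freedom, which was 6.89 to 10.9 over pairs within groups, so that none was a copy.

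Same-numbered WT and KO libraries deviated together only weakly (correlations of 0.05, 0.014 and 0.043 over genes), and nothing in the labels pairs them. The genes named are the 10 members, Gpr174, list genes past the threshold (at most 6 a list by p) with the 2 most abundant others of each list, and the 5 genes most like Bcl6 and Irf4. A few genes that this rule or the marker lists take in are not reported here. The members and lists were chosen with earlier results of these data known. Markers not covered by that rule are named from the marker lists. Older symbols were matched through RefSeq synonyms (GRCm38.p6). Gene positions are from GENCODE M21 on mm10, and promoters from RefSeq. The alternatives tried were DESeq2 (version 1.42.0), which the authors used, limma-voom (limma version 3.58.1), other scalings and filters, ordinary dispersions, the replicate number as a block, and omission of each library.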

Additional observations from a re-analysis of the deposited data

How the results depend on the processing

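Of 150 pairs of a member and an alternative, 138 kept the direction and the side of the threshold. Bcl6 passed in every alternative run. Irf4 was lost without WT replicate 1 and without KO replicate 3, and Foxo1 passed without WT replicate 2. The sign changed for 4 genes near 0, in fits without one library, where log2 fold changes ranged from -0.30 to 0.14 for Prdm1, from -0.21 to 0.37 for Pax5, from -0.052 to 0.059 for Pou2af1 and from -0.027 to 0.084 for Bach2. The cause was not tested, and these fits hold fewer libraries. The number of the 10 genes called ranged from 1 to 3 across them.

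Across the fits without one library, calls ranged from 1 to 3 for other B cell transcription factors, from 0 to 1 for BCL6 corepressors, from 1 to 4 for genes repressed by BCL6, from 1 to 2 for genes under PAX5 and EBF1, and from 1 to 3 for FOXO1-induced genes. Over all tested genes, those fits called from 91 of 10701 to 183 of 10800. Of 15 genes under PAX5 and EBF1, 2 were called with upper-quartile factors, with no filter and with a mean of at least 50 counts. DESeq2 called 3. All of these calls were lower in WT. Over all tested genes, the same 4 fits called 191 of 10514, 218 of 12431, 222 of 8554 and 252 of 8093, in that order. Without WT replicate 2 the list under PAX5 and EBF1 gave 1 call in each direction. Other B cell transcription factors gave 2 with DESeq2, limma-voom and ordinary dispersions, and BCL6 corepressors gave 0 with ordinary dispersions. Over all tested genes, limma-voom called 172 of 10514 and ordinary dispersions 170 of 10514. The ratio of Irf4 to Pax5 and Ebf1 alone differed by -0.48 between WT and KO. References without Irf8, or without Irf8 and Pax5, were added after seeing the data and gave differences of -0.86 and -0.84 for Bcl6 and of -0.44 and -0.43 for Irf4.

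With the replicate number as a block, 281 genes were called in all, against 191. The list under PAX5 and EBF1 gave 3 calls in 15 genes tested, all lower in WT, beside 281 in 10514 over all tested genes. Irf8 also passed (log2 fold change -0.28, edgeR adjusted p 0.00882). Each library correlated best with its own number, which is a hint from the data and not from the design, so this pairing was not used. Pax5 and Prdm1 had the fewest counts and the widest intervals of the 10 genes.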
